A study of Mus musculus with 4 samples.

Results

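The cytosolic ribosomal protein genes encode the proteins of the large and the small subunit of the ribosome that translates messenger RNA in the cytoplasm. Members were taken by symbol: every gene whose symbol starts with Rpl or Rps followed by a digit, together with Rplp0, Rplp1 and Rplp2. Symbols of the S6 kinases (10) and symbols marked as pseudogenes (6) were left out. That gave 86 of the 23990 genes in the tables, and 83 of the 86 were among the 12040 genes that averaged 1 FPKM or more and were tested. FPKM counts fragments relative to transcript length and sequencing depth, so levels of different genes can be compared per length. Of the 86, 43 encode core proteins of the large subunit, 30 encode core proteins of the small subunit and 3 encode proteins of the stalk. Another 9 are paralogs of a core gene, with a symbol ending in l, l1 or rt. The remaining member, Rps19bp1, is named for binding Rps19 and encodes no ribosomal protein.

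The study asked what Sox2, a transcription factor of the conducting airway, does to gene expression in alveolar type 1 (AT1) cells, the flat cells of the gas-exchange surface. AT1 cells were sorted from mouse lungs at postnatal day 3 to 4 and poly-A RNA was sequenced, with 2 libraries per group. The genotype of the libraries labelled Sox2 is Scnn1a-Cre; Rosa[Sox2/+], which pairs a Cre driven from the Scnn1a gene with a Cre-dependent Sox2 transgene at the Rosa locus. The genotype of the libraries labelled WT is Scnn1a-Cre; Rosa[mTmG/+], the same Cre with a fluorescent membrane reporter, so that the controls carry Cre as well. The strain of both groups is a mix of B6 and 129, and the labels do not state whether replicates are different animals. The p-values therefore measure only the spread between these libraries, which may be technical.

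Before any result, the level of Sox2 itself has to be given, because it goes against the labels. Sox2 stood at 1.41 and 1.99 FPKM in the libraries labelled Sox2, against 302 and 477 FPKM in the libraries labelled WT. It was higher in both libraries labelled WT, with a log2 value of -7.15 ± 0.34 for labelled Sox2 minus labelled WT (SE; limma, adjusted p = 2.39e-06). Every direction given here is therefore that of the labels, which the level of Sox2 contradicts. The 12 AT1 marker genes summed to 7979 and 9141 FPKM in the libraries labelled Sox2, against 1717 and 862 FPKM in those labelled WT, so AT1 markers were present in all 4 libraries. Of these 12 markers, 10 were called higher in the libraries labelled Sox2, against 4.2% of all tested genes. Summed FPKM of genes other than small RNAs (Mir and Snor symbols) was 336337 and 275639 in the libraries labelled Sox2, against 395978 and 353819 in those labelled WT. Small RNA genes added 54737 and 16835 FPKM in the libraries labelled Sox2, against 94467 and 367471 FPKM in those labelled WT. The number of reads behind the values is unknown.

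A ribosome holds each of its proteins in a fixed number of copies, and the genes are scattered over many chromosomes rather than grouped. In mammals their messenger RNAs start with a short run of pyrimidines, the 5′ terminal oligopyrimidine or TOP motif. Through that motif mTOR signalling sets how much of each message is translated, so that a message level need not match the rate at which the protein is made. Ribosomal protein messages are among the most abundant in most cells, and growing and dividing cells hold more of them.

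The stretch around the transcription start can carry the TOP motif and shared promoter elements, so it is shown for genes of the results. RefSeq start windows (GRCm38.p6, the assembly of mm10) were matched by symbol to 61 of the 83 tested members. Each sequence runs 5′ to 3′ from 40 bases before the RefSeq start site to 20 bases from that site on. Capitals mark pyrimidine runs of at least 8 bases that reach within 20 bases of the start site. Rpl15, Rps26, Rps27l, Rps27 and Rpl22l1 hold a run of at least 8, and Rps2, Rpl12, Rplp0, Rpl26 and Rps19 do not. Shorter runs are not marked, so a sequence without capitals does not show that the TOP motif is absent. Capitals do not show that the motif is present either. In Rps27l both marked runs end before the RefSeq start site. The RefSeq start site lies 38, 32 and 3 bases from the listed 5′ end of the gene for Rps19, Rps27l and Rpl22l1. Rps19 is shown because it is the tested member nearest to no difference.
Rpl15 (chr14:18270967-18271026, minus strand): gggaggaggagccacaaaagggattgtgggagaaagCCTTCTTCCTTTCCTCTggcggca
Rps26 (chr10:128626487-128626546, minus strand): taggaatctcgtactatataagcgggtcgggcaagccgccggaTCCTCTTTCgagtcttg
Rps27l (chr9:66946046-66946105, plus strand): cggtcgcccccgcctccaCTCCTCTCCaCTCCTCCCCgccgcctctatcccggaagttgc
Rps27 (chr3:90213629-90213688, minus strand): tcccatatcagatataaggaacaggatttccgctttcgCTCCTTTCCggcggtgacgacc
Rpl22l1 (chr3:28805468-28805527, plus strand): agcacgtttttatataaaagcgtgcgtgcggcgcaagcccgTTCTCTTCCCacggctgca
Rps2 (chr17:24720023-24720082, plus strand): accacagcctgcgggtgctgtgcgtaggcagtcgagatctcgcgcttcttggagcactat
Rpl12 (chr2:32961672-32961731, plus strand): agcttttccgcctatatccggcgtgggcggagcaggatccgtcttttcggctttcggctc
Rplp0 (chr5:115559427-115559486, plus strand): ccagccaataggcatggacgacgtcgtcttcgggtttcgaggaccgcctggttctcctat
Rpl26 (chr11:68901526-68901585, plus strand): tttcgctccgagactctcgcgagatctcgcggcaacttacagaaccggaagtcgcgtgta
Rps19 (chr7:24884636-24884695, plus strand): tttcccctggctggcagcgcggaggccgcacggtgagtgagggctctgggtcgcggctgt

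Ribosomal protein messages made up a large part of the polyadenylated RNA in every library. Of the 100 genes with the highest mean FPKM, 48 were members, and of the top 200, 68 were. Summed over the members, FPKM came to 40228 and 31131 in the libraries labelled Sox2, against 62548 and 68991 FPKM in the libraries labelled WT. Both libraries labelled Sox2 lay below both libraries labelled WT. The group means were 35680 ± 6432 FPKM for labelled Sox2 and 65770 ± 4556 FPKM for labelled WT (SD, n = 2 each), a log2 difference of -0.88. With 2 libraries against 2, an exact permutation test of such a sum cannot give a two-sided p below 0.333, so none is given. In bulk samples, fewer cells with many ribosomal protein messages and less such message per cell cannot be told apart.

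The share of the library taken by the members depended on whether small RNA genes were counted. Without them, the members held 12.0% and 11.3% of summed FPKM in the libraries labelled Sox2, against 15.8% and 19.5% in the libraries labelled WT. With them, the shares were 10.3% and 10.6% for labelled Sox2 and 12.8% and 9.57% for labelled WT, and the groups overlapped. Labelled WT replicate 2, the library with the most small RNA, had the lowest of these shares. The scale also moved the size of the difference in the summed level, which was -0.56 with median-of-ratios scaling, -0.38 with quantile normalization and -0.60 as a share without small RNA genes.

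**Figure D1:**
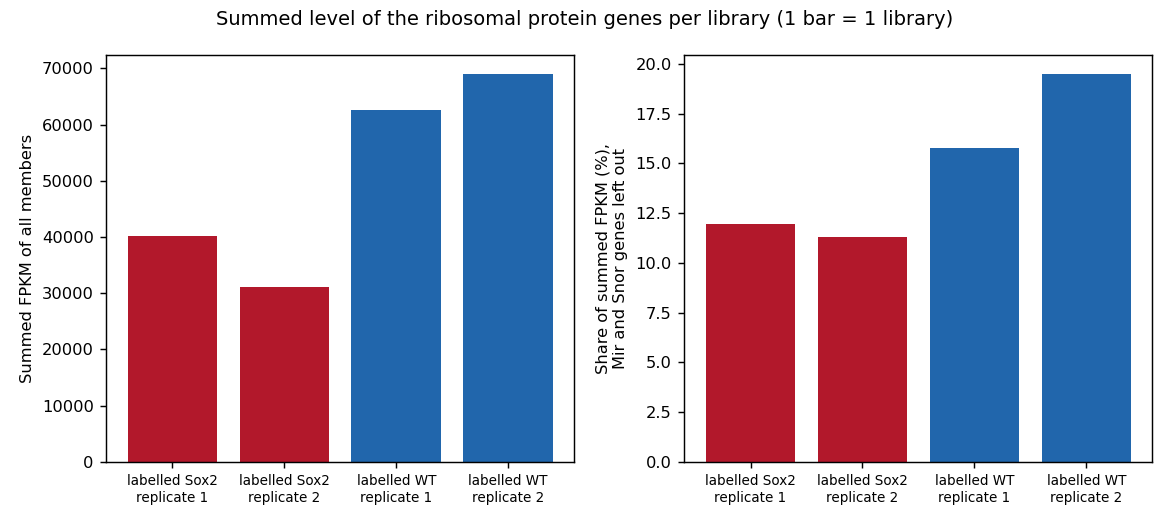
Left, FPKM summed over the 86 ribosomal protein genes in each of the 4 libraries. Right, the share of summed FPKM that they held in each library, in percent and without small RNA genes. The libraries labelled Sox2 sit at 40228 and 31131 FPKM and those labelled WT at 62548 and 68991 FPKM.

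Across single genes, the difference ran one way. All 83 tested members had a log2 difference below 0, a sign shown by 67.5% of all tested genes. With median-of-ratios scaling 81 were below 0 (50% of all tested genes), with quantile normalization 75 (52.4%) and as a share without small RNA genes 82 (52.8%). In 81 of the 83, both libraries labelled Sox2 lay below both libraries labelled WT, a pattern found in 42.5% of all tested genes. No member had both libraries labelled Sox2 above both labelled WT, against 15.7% of all tested genes. The exceptions were Rps19 and Rps27rt, whose groups overlapped. Other scalings left fewer members with both libraries labelled Sox2 below both labelled WT. These were 70 with median-of-ratios scaling (31.5% of all tested genes), 64 with quantile normalization (33.8%) and 73 as a share without small RNA genes (33.2%). With quantile normalization 1 member, Rps19, was apart in the other direction, and none was under the other scalings.

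The members also moved by similar amounts. Their median log2 difference was -0.91 and the middle of the distribution lay between -1.04 and -0.78 (quartiles), against a median of -0.29 and quartiles of -0.74 and 0.15 over all tested genes. Of the 83 members, 61 were within 0.25 of the members' median. Of the 12040 tested genes, 3633 were within 0.25 of the median of all tested genes. With 75 of the 83 members over 100 FPKM on average, their spread was not set against that of genes at a like level. The lowest value was -2.17 for Rpl26 and the highest -0.09 for Rps19. The median of all genes depends on the scaling: it was 0.00 with median-of-ratios scaling, -0.04 with quantile normalization and -0.05 as a share without small RNA genes. Under these scalings the members' median was -0.55, -0.40 and -0.61, in the same order. Leaving out each library in turn gave a members' median between -1.08 and -0.75, and a median of all tested genes between -0.48 and -0.11. The members' median minus that of all tested genes ran from -0.84 to -0.46 in these fits, against -0.62 with all 4 libraries.

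**Figure D2:**
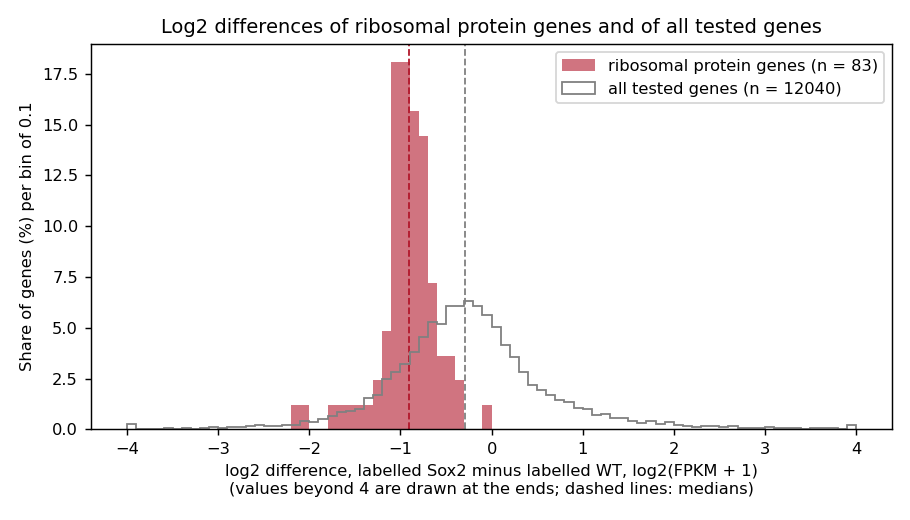
Distribution of the log2 difference (labelled Sox2 minus labelled WT, log2(FPKM + 1)) over the 83 tested ribosomal protein genes and over all 12040 tested genes. The members center on -0.91 and all lie below 0, while all tested genes center on -0.29.

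In the test of single genes, 9 of the 83 members were lower in the libraries labelled Sox2 (limma, Benjamini-Hochberg adjusted p under 0.05), against 8.11% of all tested genes. None was higher (limma; 4.2% of all tested genes), and 74 did not pass in either direction. At an unadjusted p under 0.05, limma gave 65 members lower (21.1% of all tested genes) and 0 higher (8.47%). The share of members called was near the share of all genes called, so the calls alone do not set the members apart. The count of calls depended on the libraries. Each fit without a library rests on 1 library in that group, which is assumed to vary like the pair in the other group, and every call kept or lost in these fits rests on that. Leaving out labelled Sox2 replicate 1 gave 3 (3.5% of all tested genes) and leaving out labelled Sox2 replicate 2 gave 0 (0.955%; 18 lower by limma at an unadjusted p under 0.05, against 7.67% of all tested genes). Leaving out labelled WT replicate 1 gave 8 (7.37%) and leaving out labelled WT replicate 2 gave 5 (10.9%). It depended on the settings as well: 41 members were lower under a robust variance model (11.2% of all tested genes), 23 without small RNA genes and genes at several positions (10.2%) and 14 with a filter at 5 FPKM (9.16%). Testing every gene above 0 in any library called 0 members by limma (0.0163%), with 31 lower at an unadjusted p under 0.05 (14.2% of the genes so tested). The other scalings called 5 members lower with median-of-ratios scaling (5.7%), 7 with quantile normalization (6.87%) and 6 as a share without small RNA genes (5.51%).

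The stalk is the flexible arm of the large subunit that recruits elongation factors, and all 3 of its genes are members. Rplp0, the base of the stalk, had 543 and 373 FPKM in the libraries labelled Sox2, against 1080 and 1023 FPKM in the libraries labelled WT. Its groups lay well apart, and it fell by 1.22 ± 0.34 on the log2 scale (SE; limma, adjusted p = 0.0414), a call that was lost whichever library was left out (adjusted p = 0.0532 to 0.283) and under all 3 other scalings (0.0542 to 0.0876). Rplp1, an acidic protein that binds to Rplp0 as a pair with Rplp2, had 1051 and 759 FPKM in the libraries labelled Sox2, against 1765 and 2060 FPKM in those labelled WT. The groups of Rplp1 did not overlap, and its log2 difference was -1.09 ± 0.36 (SE; limma, adjusted p = 0.0704). The partner Rplp2, chosen after its values were seen, had 691 and 512 FPKM in the libraries labelled Sox2, against 1194 and 1334 FPKM in those labelled WT. It too showed no overlap, and its log2 value differed by -1.08 ± 0.34 (SE; limma, adjusted p = 0.0621).

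**Figure D3:**
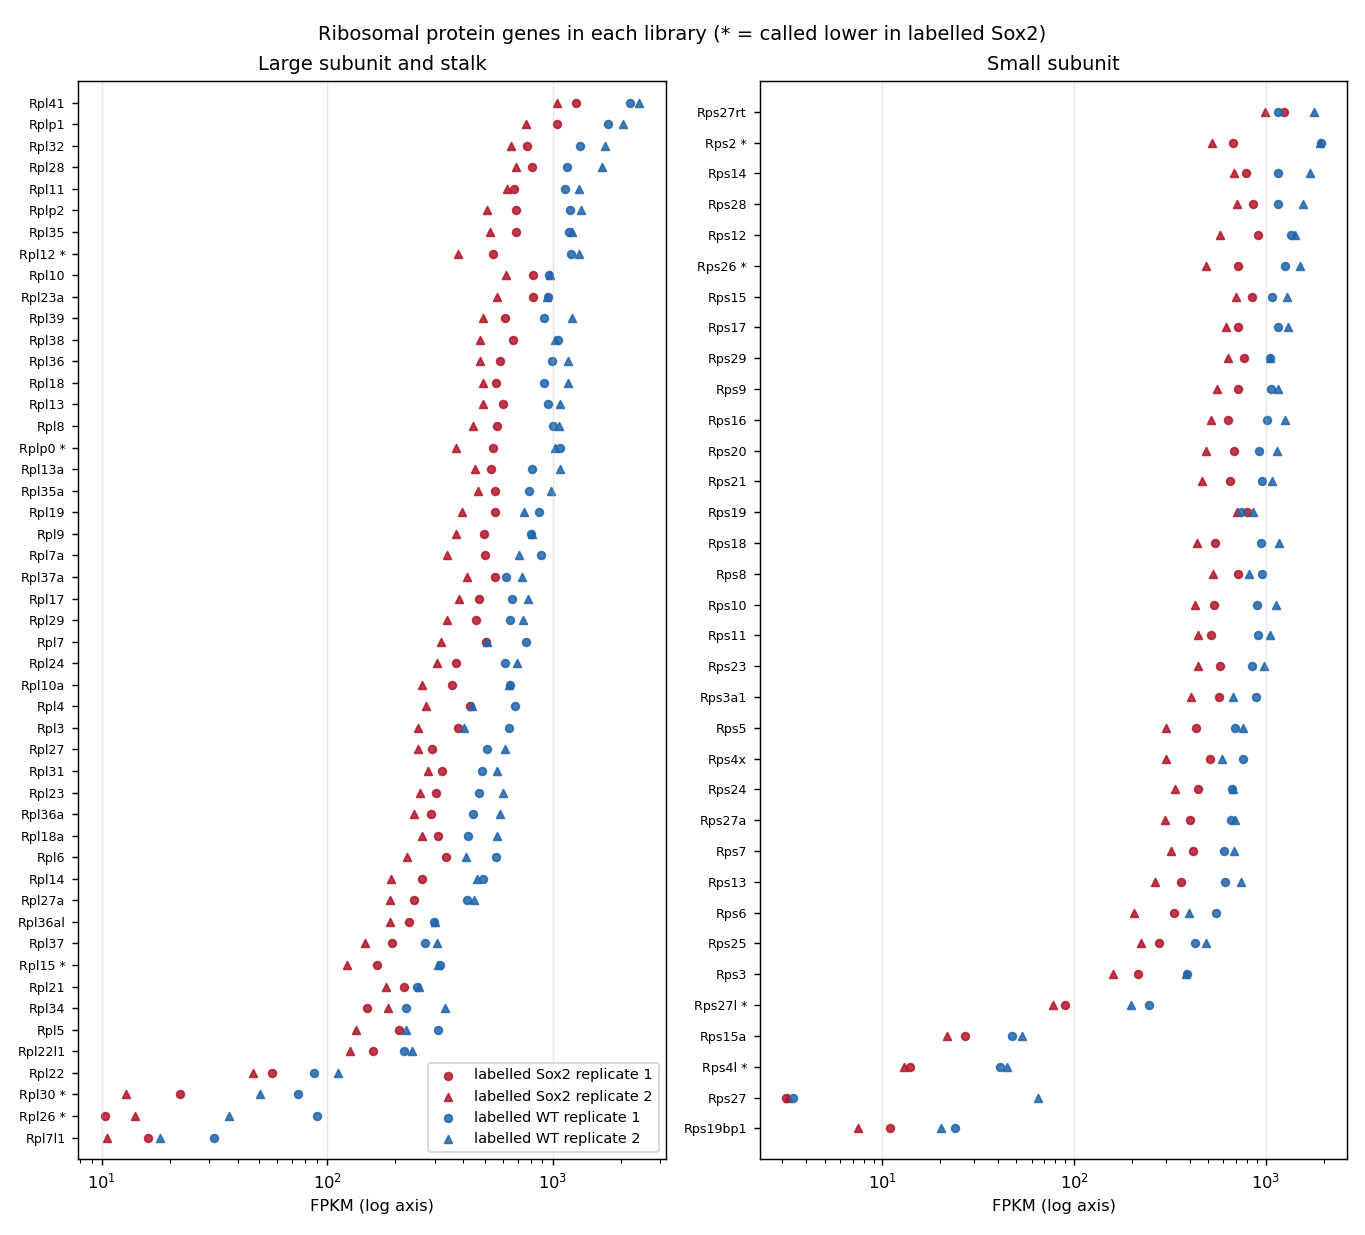
FPKM (log axis) of the 83 tested ribosomal protein genes in each of the 4 libraries, ordered by mean level within the large subunit with the stalk and within the small subunit. Red marks stand for the libraries labelled Sox2 and blue marks for those labelled WT, and red lies left of blue for every gene except Rps19 and Rps27rt.

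Among the 43 core genes of the large subunit, 4 were called lower, against 8.11% of all tested genes. The other 39 did not pass, and the median log2 difference of the 43 was -0.91. Rpl12, which sits at the foot of the stalk beside Rplp0, had 544 and 382 FPKM in the libraries labelled Sox2, against 1204 and 1309 FPKM in the libraries labelled WT. The groups were far apart for Rpl12, which fell by 1.46 ± 0.34 on the log2 scale (SE; limma, adjusted p = 0.0210). Leaving out labelled Sox2 replicate 2 ended this call (adjusted p = 0.170 by limma), as did leaving out labelled WT replicate 2 (0.0711) and median-of-ratios scaling (0.0597). Rpl15, a protein of the interior of the large subunit, had 166 and 122 FPKM in the libraries labelled Sox2, against 315 and 310 FPKM in those labelled WT. Both libraries labelled WT were high and close together. Rpl15 fell by 1.13 ± 0.31 on the log2 scale (SE; limma, adjusted p = 0.0406), and the call was lost whichever library was left out (limma, adjusted p = 0.0618 to 0.287) and under all 3 other scalings (0.0561 to 0.0925).

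The 2 largest falls in the large subunit were in genes listed at low levels for a ribosomal protein. Rpl26, which lies near the exit of the peptide tunnel and is also known to bind the p53 message, had 10.3 and 14.1 FPKM in the libraries labelled Sox2, against 90.4 and 36.8 FPKM in the libraries labelled WT. The groups did not overlap, but the libraries labelled WT differed strongly from each other. Rpl26 fell by 2.17 ± 0.42 on the log2 scale (SE; limma, adjusted p = 0.00911). Its mean in labelled WT was 5.22-fold that in labelled Sox2, and 3.02-fold without labelled WT replicate 1. The call was lost without either library labelled Sox2 (limma, adjusted p = 0.0634 without replicate 1 and 0.0620 without replicate 2). Rpl30, a small protein of the large subunit, had 22.1 and 12.8 FPKM in the libraries labelled Sox2, against 73.8 and 50.6 FPKM in those labelled WT. No library of Rpl30 crossed into the other group. Rpl30 fell by 1.80 ± 0.36 (SE; limma, adjusted p = 0.0109). The call ended without labelled Sox2 replicate 2 (adjusted p = 0.138 by limma), with the mean in labelled WT still 2.81-fold that in labelled Sox2. Many ribosomal protein genes have near-identical processed copies in the genome, and how the authors' counting shared reads between them is not given in the sources used here, so such low levels are uncertain.

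Of the 8 most abundant members, only Rps2 passed the test. Rpl41, a very short peptide of the large subunit, had the highest mean of the members, at 1266 and 1045 FPKM in the libraries labelled Sox2, against 2212 and 2423 FPKM in the libraries labelled WT. The groups of Rpl41 did not overlap, and the log2 difference was -1.01 ± 0.36 (SE; limma, adjusted p = 0.0862). Rpl32, of the large subunit, had 772 and 655 FPKM in the libraries labelled Sox2, against 1323 and 1705 FPKM in those labelled WT. It differed by -1.08 ± 0.35 (SE; limma, adjusted p = 0.0654), with no overlap of the groups. Rpl28, also of the large subunit, had 811 and 690 FPKM in the libraries labelled Sox2, against 1158 and 1653 FPKM in those labelled WT. Again the groups were apart, and the log2 difference was -0.89 ± 0.35 (SE; limma, adjusted p = 0.122).

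Among the 30 core genes of the small subunit, 2 were called lower, against 8.11% of all tested genes. The other 28 did not pass, and the median log2 difference of the 30 was -0.88. Rps2, at the channel by which messenger RNA enters the ribosome, had 674 and 526 FPKM in the libraries labelled Sox2, against 1932 and 1908 FPKM in the libraries labelled WT. The libraries labelled WT were nearly alike and lay far above the others. Rps2 fell by 1.69 ± 0.34 on the log2 scale (SE; limma, adjusted p = 0.0112). The call did not stand when labelled Sox2 replicate 2 was left out (adjusted p = 0.0960 by limma), and it stood when any other library was. Rps26, at the site where messenger RNA leaves the ribosome, had 719 and 489 FPKM in the libraries labelled Sox2, against 1263 and 1505 FPKM in those labelled WT. Its groups did not overlap, and it fell by 1.22 ± 0.35 (SE; limma, adjusted p = 0.0474), a call lost whichever library was left out (limma, adjusted p = 0.0582 to 0.311) and under all 3 other scalings (0.0758 to 0.131).

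Rps14 and Rps28, both of the small subunit, were among the most abundant members. Rps14 had 786 and 682 FPKM in the libraries labelled Sox2, against 1160 and 1692 FPKM in the libraries labelled WT. Its libraries separated by label, and the log2 difference was -0.94 ± 0.36 (SE; limma, adjusted p = 0.107). Rps28 had 852 and 705 FPKM in the libraries labelled Sox2, against 1159 and 1553 FPKM in those labelled WT. Its groups did not overlap either, and its log2 difference was -0.79 ± 0.35 (SE; limma, adjusted p = 0.160).

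Rps19, a protein of the small subunit needed for its maturation and mutated in Diamond-Blackfan anaemia in humans, was the member nearest to no difference. It had 797 and 706 FPKM in the libraries labelled Sox2, against 743 and 855 FPKM in the libraries labelled WT. The groups overlapped, and the log2 difference was -0.09 ± 0.33 (SE; limma, adjusted p = 0.894). Its sign turned under every other scaling, to 0.27 with median-of-ratios scaling, 0.53 with quantile normalization and 0.21 as a share without small RNA genes. With quantile normalization both libraries labelled Sox2 lay above both labelled WT for Rps19, which was not called (limma, adjusted p = 0.134). Leaving out labelled Sox2 replicate 2 gave 0.00021, and leaving out labelled WT replicate 2 gave 0.014.

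Rps27 and Rps27rt have to be read together, because their positions in the files overlap almost fully (chr3:90212667-90213648 for Rps27 and chr3:90212667-90213647 for Rps27rt, mm10). Rps27 encodes a protein of the small subunit, and Rps27rt is a copy of it by name. Rps27 had 3.16 and 3.24 FPKM in the libraries labelled Sox2, against 3.40 and 64.6 FPKM in the libraries labelled WT. Labelled WT replicate 2 alone was high, labelled WT replicate 1 lay just above the libraries labelled Sox2, and the log2 difference of -2.02 did not pass (limma, adjusted p = 0.166). Rps27rt had 1238 and 994 FPKM in the libraries labelled Sox2, against 1158 and 1780 FPKM in those labelled WT, and its groups overlapped. Its log2 difference was -0.37 ± 0.37 (SE; limma, adjusted p = 0.550), and 0.067 with quantile normalization. The pair summed to 1241 and 997 FPKM in the libraries labelled Sox2, against 1161 and 1844 FPKM in those labelled WT, a log2 difference of -0.40 with overlapping groups.

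Paralogs of core ribosomal proteins are expressed in some tissues in place of, or beside, the core protein. Of the 9 paralogs, 6 were tested, with 2 called lower, against 8.11% of all tested genes. The other 4 did not pass, and the median log2 difference of the 6 was -0.76. Rpl10l and Rpl3l were listed at 0 in all 4 libraries, and Rpl39l was listed at 0.352 FPKM in labelled WT replicate 1 and at 0 in the others. Rpl10l is known from the testis and Rpl3l from muscle. Their core partners were all expressed: the log2 difference was -0.44 for Rpl10 (limma, adjusted p = 0.420; 0.14 with quantile normalization), -0.72 for Rpl3 (limma, adjusted p = 0.214) and -0.94 for Rpl39 (limma, adjusted p = 0.0977).

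Rps4l and Rps27l were the paralogs that were called. Rps4l, a copy of the X-linked Rps4x, had 13.9 and 13.0 FPKM in the libraries labelled Sox2, against 41.0 and 44.6 FPKM in the libraries labelled WT. Replicates were close in both groups, and Rps4l fell by 1.60 ± 0.31 on the log2 scale (SE; limma, adjusted p = 0.00966). It was not called without either library labelled Sox2 (limma, adjusted p = 0.0527 without replicate 1 and 0.107 without replicate 2). Relative to Rps4x, Rps4l stood at 2.73% and 4.29% in the libraries labelled Sox2, against 5.41% and 7.56% in those labelled WT. Rps4x itself differed by -0.77 ± 0.36 (SE; limma, adjusted p = 0.186). Rps27l, which p53 is known to induce, had 89.9 and 77.3 FPKM in the libraries labelled Sox2, against 245 and 199 FPKM in those labelled WT. Its groups were far apart, and it fell by 1.39 ± 0.31 (SE; limma, adjusted p = 0.0153), a call lost without either library labelled Sox2 (limma, adjusted p = 0.0514 without replicate 1 and 0.132 without replicate 2). Set against the sum of Rps27 and Rps27rt, Rps27l stood at 7.25% and 7.76% in the libraries labelled Sox2, against 21.1% and 10.8% in those labelled WT.

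Rpl22l1, Rpl36al and Rpl7l1, the tested paralogs not yet described, did not pass the test. Rpl22l1 was more abundant per length than its partner Rpl22, by 2.83 and 2.67 times in the libraries labelled Sox2, against 2.51 and 2.13 times in the libraries labelled WT. The log2 difference was -0.69 for Rpl22l1 (limma, adjusted p = 0.165) and -0.92 for Rpl22 (limma, adjusted p = 0.0753). Rpl36al stood at 79.5% and 78.1% of Rpl36a in the libraries labelled Sox2, against 66.6% and 51.3% in those labelled WT, with log2 differences of -0.52 and -0.95 for the pair (limma, adjusted p = 0.289 and 0.0789). Rpl7l1 stood at 3.15% and 3.33% of Rpl7 in the libraries labelled Sox2, against 4.15% and 3.55% in those labelled WT. Their log2 differences were -0.83 and -0.63 (limma, adjusted p = 0.174 and 0.278). None of these ratios was tested.

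Rps19bp1, the member that is no ribosomal protein, had 11.0 and 7.47 FPKM in the libraries labelled Sox2, against 23.9 and 20.1 FPKM in the libraries labelled WT. Its groups did not overlap, and its log2 difference was -1.19 ± 0.35, just outside the threshold (SE; limma, adjusted p = 0.0503). It was called with a filter at 5 FPKM (limma, adjusted p = 0.0446), with quantile normalization (0.0435), with a robust variance model (0.0303) and without small RNA genes and genes at several positions (0.0386).

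Members differed in transcript length, and in these libraries short genes differed more than long ones. Among tested genes other than members, the median log2 difference was -0.66 for principal transcripts of up to 600 bases (136 genes), -0.60 above 600 and up to 900 bases (361 genes), -0.47 above 900 and up to 2000 bases (2503 genes) and -0.23 above 2000 bases (8110 genes). The members' medians in the same classes were -0.88 (20 genes), -0.94 (24 genes), -0.89 (32 genes) and -0.88 (6 genes). The members were thus lower than other genes in each class, by less among short genes. The level mattered too: the median of other genes was -0.22 at 1 to 10 FPKM, -0.38 at 10 to 100 FPKM and -0.52 above 100 FPKM, where 75 of the 83 members lie. How far length and level enter the members' difference was not tested.

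**Figure D4:**
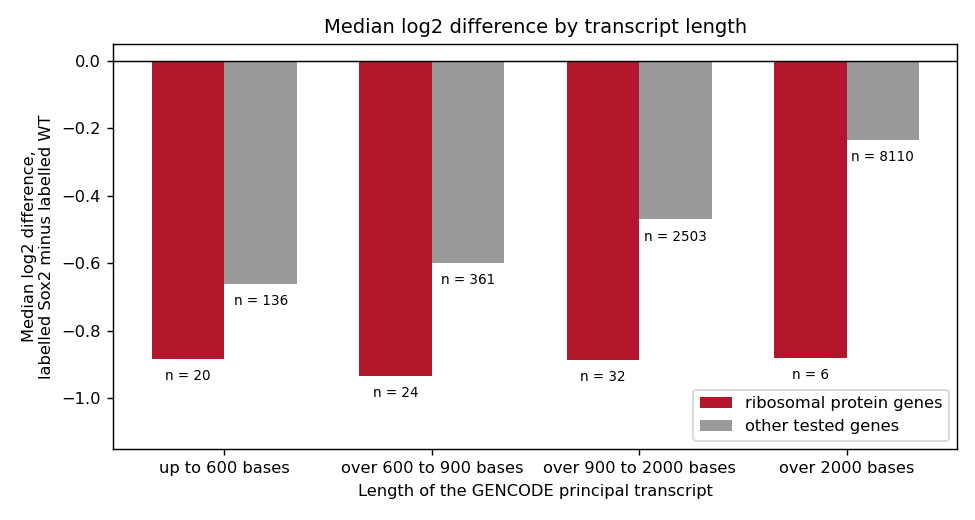
Median log2 difference (labelled Sox2 minus labelled WT) of ribosomal protein genes and of other tested genes by transcript length, in bases. Members sit between -0.94 and -0.88 in all 4 classes, other genes between -0.66 in the shortest class and -0.23 in the longest.

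Replicates of a group also differed in the members. In labelled Sox2 replicate 2, 79 of the 82 members with a known length were lower than in labelled Sox2 replicate 1, with a median log2 difference of -0.36, and other genes had a median of -0.37. In labelled WT replicate 2, 58 of the 82 were higher than in labelled WT replicate 1, with a median of 0.16, while other genes had a median of -0.33. The difference between the groups was larger than either. The order of the members by level changed little: Pearson's r of log2 levels over the members was 0.993 for the pair labelled Sox2, 0.936 for the pair labelled WT and 0.953 to 0.972 across the groups. These values describe genes, which are not independent replicates.

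Promoter letters were set beside the values for the 61 tested members with a RefSeq window. A run of at least 8 pyrimidines (C or T) within 20 bases of the start was found in 28 members (45.9%) on the strand of the gene and in 3 (4.92%) on the other strand. Over the 9030 tested genes with a window the shares were 15.4% and 15.6%. Rpl15, Rps26, Rps27l, Rps27 and Rpl22l1 are among the 28 members. Members with a run had a median log2 difference of -0.93 and members without had -0.90.

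Other motifs were searched on both strands of the window from 250 bases before to 50 bases after the start, apart from TATAA. The ETS core CCGGAAG was present in 23 members (37.7%), against 19.2% of tested genes. The YY1 motif AAGATGGC was present in 6 members (9.84%), against 4.87%. TATAA, searched on both strands from 45 to 15 bases before the start, was present in 5 members (8.20%), against 2.66%. It can be read in the sequences of Rps26, Rps27 and Rpl22l1. With and without each motif, the members' medians were -0.93 and -0.91 for the ETS core, -0.93 and -0.91 for the YY1 motif and -1.11 and -0.92 for TATAA. A match describes letters only and was not set against binding.

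Introns of ribosomal protein genes often carry small nucleolar RNAs (snoRNAs), which guide the modification of ribosomal RNA. In the tables, 21 tested members held 30 entries with a Snor symbol inside their position. Their median log2 difference was -0.93, with 2 called lower, against -0.90 for the 62 tested members without one, with 7 called lower. Of all tested genes, 8.11% were called lower, and the counts of calls were not tested against each other.

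Other genes of translation were read from 7 lists that together held 129 tested genes outside the members. In this union, limma called 18 genes lower in labelled Sox2 and 0 higher (adjusted p under 0.05). Over all tested genes the shares were 8.11% lower and 4.2% higher. At an unadjusted p under 0.05, limma gave 58 lower and 0 higher, against 21.1% and 8.47% of all tested genes. The median log2 difference of the union was -0.80. The share of 8.11% also stands beside the count of each list below. Shares of all genes in the fits without 1 library are those given with the members' calls. Leaving out labelled Sox2 replicate 1 or 2 gave 11 or 2 lower, and leaving out labelled WT replicate 1 or 2 gave 13 or 47 lower. Ribosomal proteins whose symbols the rule does not cover came first: of 4 tested, 1 was lower and the median was -0.95. It was Rpsa, a protein of the small subunit that also serves as the laminin receptor, with 243 and 159 FPKM in the libraries labelled Sox2, against 601 and 443 FPKM in those labelled WT. Rpsa fell by 1.39 ± 0.34 (SE; limma, adjusted p = 0.0263). The call ended when labelled Sox2 replicate 2 (adjusted p = 0.224 by limma) or labelled WT replicate 1 (0.0589) was left out, with log2 differences of -1.08 and -1.17.

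Elongation and termination factors held 10 tested genes, with 3 lower and a median log2 difference of -1.09. Eif5a, which relieves stalled ribosomes, had 208 and 163 FPKM in the libraries labelled Sox2, against 569 and 454 FPKM in the libraries labelled WT, with no overlap. It fell by 1.46 ± 0.32 (SE; limma, adjusted p = 0.0154). Eef1e1, a scaffold of the aminoacyl-tRNA synthetase complex, fell by 1.53 (limma, adjusted p = 0.0287). Eef1b2, which recharges elongation factor 1A with GTP, fell by 1.12 (limma, adjusted p = 0.0405). Leaving out labelled Sox2 replicate 2 ended all 3 calls (adjusted p by limma = 0.136 for Eif5a, 0.300 for Eef1e1 and 0.310 for Eef1b2). The call of Eef1e1 also ended without labelled Sox2 replicate 1 (limma, 0.0540) or labelled WT replicate 1 (0.0784), and that of Eef1b2 without labelled Sox2 replicate 1 (0.0675) or labelled WT replicate 2 (0.0501). Eef1b2 was also not called under any of the 3 other scalings (limma, adjusted p = 0.0522 to 0.0871).

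Initiation factors held 37 tested genes, with 2 lower and a median of -0.72. Eif3e, a subunit of the initiation factor that loads the small subunit with messenger RNA, had 56.8 and 47.1 FPKM in the libraries labelled Sox2, against 170 and 146 FPKM in the libraries labelled WT. It fell by 1.59 ± 0.30, with groups far apart (SE; limma, adjusted p = 0.00844; 0.0934 when labelled Sox2 replicate 2 was left out). Eif3j1, of the same factor, had 0.0412 and 0.229 FPKM in the libraries labelled Sox2, against 25.4 and 11.6 FPKM in those labelled WT, a log2 difference of -4.01 (limma, adjusted p = 0.000651). The ratio of its means, labelled WT over labelled Sox2, was 137. Leaving out replicate 1 or 2 of labelled Sox2 gave 80.8 or 449, and leaving out labelled WT replicate 1 gave 86.0. Eif3j1 overlaps Eif3j2 almost fully in the files, so how reads were shared between them is uncertain. Eif3j2, named after its values were seen, had 23.2 and 13.9 FPKM in the libraries labelled Sox2, against 18.6 and 8.78 FPKM in those labelled WT, with overlapping groups and a log2 difference of 0.45 (limma, adjusted p = 0.516). Summed, the pair had 23.2 and 14.1 FPKM in the libraries labelled Sox2, against 44.0 and 20.4 FPKM in those labelled WT, a log2 difference of -0.70 with overlapping groups.

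Other genes whose messages carry the TOP motif held 17 tested genes, with 6 lower and a median of -1.07. Besides Eif3e and Eef1b2 these were Npm1, a histone and ribosome chaperone of the nucleolus, Nap1l1, a histone chaperone, and Naca and Btf3, the pair that forms the nascent-chain complex at the tunnel exit. Npm1 had 158 and 85.1 FPKM in the libraries labelled Sox2, against 571 and 223 FPKM in the libraries labelled WT. Labelled WT replicate 1 was far above labelled WT replicate 2, and Npm1 fell by 1.61 ± 0.46 (SE; limma, adjusted p = 0.0433; 0.0508 without labelled Sox2 replicate 1 and 0.333 without replicate 2). The mean of Npm1 in labelled WT was 3.27-fold that in labelled Sox2, and 1.83-fold without labelled WT replicate 1 (limma, adjusted p = 0.127). The log2 difference was -1.43 for Nap1l1 (limma, adjusted p = 0.0237) and -1.29 for Naca (limma, adjusted p = 0.0299). Both calls ended when labelled Sox2 replicate 2 was left out (limma, adjusted p = 0.228 and 0.235), and that of Naca also without labelled Sox2 replicate 1 (0.0516) or labelled WT replicate 1 (0.0780). Npm1 was not called under any of the 3 other scalings (limma, adjusted p = 0.0856 to 0.0988), nor Naca with median-of-ratios scaling (0.0514).

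Ribosome assembly factors held 40 tested genes, with 8 lower and a median of -1.01. Nhp2, a core protein of the particles that turn uridine into pseudouridine in ribosomal RNA, had 16.3 and 14.4 FPKM in the libraries labelled Sox2, against 82.7 and 82.5 FPKM in the libraries labelled WT. Replicates of Nhp2 nearly coincided, and it fell by 2.36 ± 0.31 (SE; limma, adjusted p = 0.00126), a call that stood whichever library was left out. Grwd1, Rrs1 and Nop16, all needed to build the large subunit, had log2 differences of -2.23, -2.06 and -1.96 (limma, adjusted p = 0.00618, 0.00397 and 0.00875). Leaving out labelled Sox2 replicate 2 ended these calls (limma, adjusted p = 0.109, 0.0691 and 0.131).

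RNA polymerase I and its factors, which make the ribosomal RNA precursor, held 15 tested genes, of which 0 passed in either direction (limma). At an unadjusted p under 0.05, limma gave 2 lower and 0 higher, against 21.1% and 8.47% of all tested genes. The median of the 15 was -0.65. The 2 most abundant were Polr1d, at 48.6 and 43.6 FPKM in the libraries labelled Sox2, against 72.5 and 76.6 FPKM in those labelled WT, and Ubtf, with a log2 difference of -0.47 (limma, adjusted p = 0.377). Genes of mTOR signalling and of TOP regulation held 16 tested genes, with 1 lower and a median of -0.51. It was Eef2k, the kinase that slows elongation, which fell by 1.85 ± 0.43 (SE; limma, adjusted p = 0.0190; 0.0758 without labelled Sox2 replicate 1 and 0.235 without replicate 2).

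**Figure D5:**
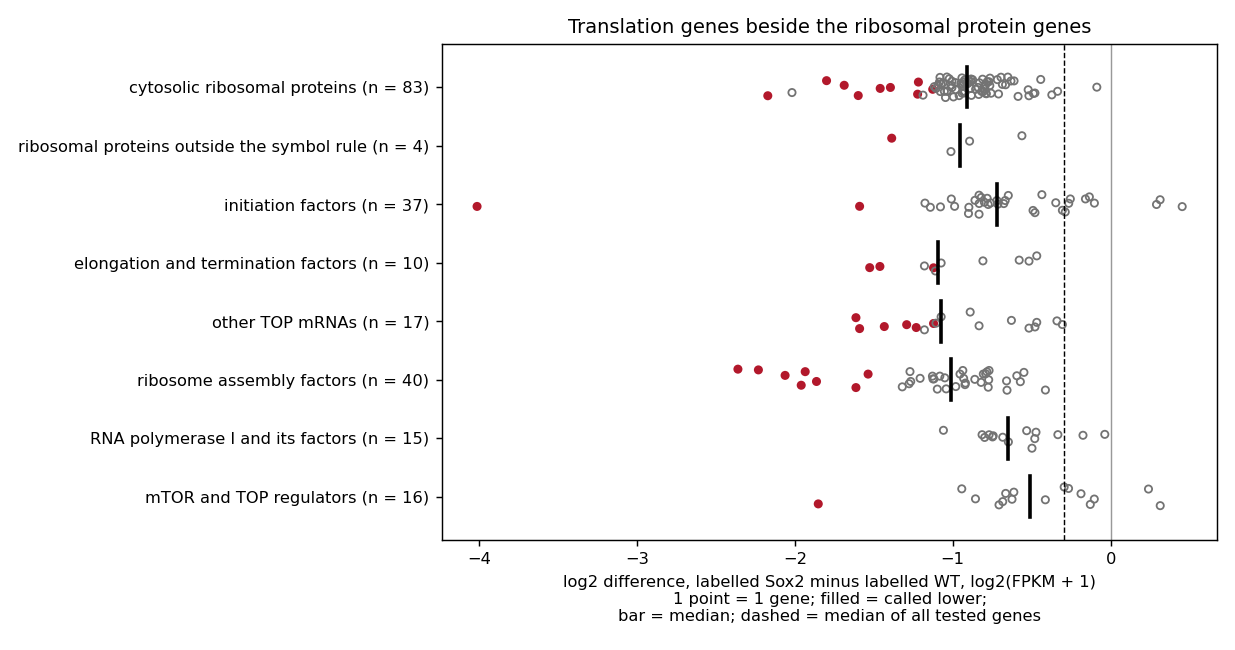
Log2 difference (labelled Sox2 minus labelled WT) of each tested gene in the ribosomal protein set and in 7 other translation lists, with the median as a bar and called genes filled. List medians run from -1.09 for elongation and termination factors to -0.51 for mTOR and TOP regulators, all below the -0.29 of all tested genes.

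Markers of other cells and of the cell cycle moved with the labels beside the ribosomal protein genes. Of all tested genes, limma called 8.11% lower and 4.2% higher in labelled Sox2. Cell division genes summed to 186 and 79.2 FPKM in the libraries labelled Sox2, against 652 and 358 FPKM in the libraries labelled WT, and 10 of 12 were called lower. Basal and squamous markers summed to 2.51 and 2.08 FPKM in the libraries labelled Sox2, against 82.1 and 521 FPKM in those labelled WT, with 5 of 7 tested called lower. Dapl1, Sprr2a1, Krt4 and Krt6a made up most of the sums in labelled WT. Of the 7 tested, 6 had a log2 difference below 0. The exception was Krt15, at 1.75 and 1.60 FPKM in the libraries labelled Sox2, against 1.46 and 1.43 FPKM in those labelled WT. Of that list, Krt5 and Sprr3 were listed at 0 in both libraries labelled Sox2, Krt6a in replicate 1 of them, Krt14 and Dapl1 in replicate 2, and Krt14 in labelled WT replicate 2. AT2 markers summed to 25106 and 17408 FPKM in the libraries labelled Sox2, against 6110 and 1042 FPKM in those labelled WT, with 8 of 9 called higher and none at 0.

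Markers listed for cells outside the epithelium ran higher in the libraries labelled Sox2 or overlapped. Of all tested genes, 4.2% were called higher. Endothelial markers summed to 177 and 127 FPKM in the libraries labelled Sox2, against 43.7 and 15.3 FPKM in the libraries labelled WT, with 3 of 8 called higher. Leukocyte markers summed to 1200 and 860 FPKM in the libraries labelled Sox2, against 284 and 80.0 FPKM in those labelled WT. Of these 8, 2 were called higher, Lyz2 and Csf1r. Lyz2 made up most of the sums, so they do not show that leukocytes were more numerous. Without Lyz2 the other 7 markers summed to 97.9 and 47.8 FPKM in the libraries labelled Sox2, against 43.3 and 21.7 FPKM in those labelled WT. For 6 of the 7 the groups overlapped. Mesenchymal markers summed to 284 and 93.5 FPKM in the libraries labelled Sox2, against 127 and 29.2 FPKM in those labelled WT. Limma called 0 of these 8, with 3 higher at an unadjusted p under 0.05, against 8.47% of all tested genes. Erythroid markers summed to 273 and 1240 FPKM in the libraries labelled Sox2, against 74.0 and 334 FPKM in those labelled WT, with 1 of 6 tested called higher. The part of these cells and of the cell cycle in the lower ribosomal protein levels was not tested.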

How the data were processed

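The 4 libraries were grouped by their titles. Per the file headers, the authors' deposited values are FPKM, each gene with 2 bounds. The submitters' processing notes name Bowtie2, Cuffdiff, Cufflinks and TopHat2 and the build mm10. The sources used here do not give versions, annotation or strand setting. A further table of 2 columns was not used, since no label ties the columns to a group. The tables list 24490 entries each, entries of 267 repeated symbols were added (0 of them members), and Rn45s was left out.

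Log2(FPKM + 1) was tested for genes that averaged 1 FPKM or more in limma 3.58.1 under R 4.3.3 (lmFit, eBayes with trend, two-sided), with group as the term, Benjamini-Hochberg adjustment over all 12040 genes and a threshold of 0.05. Differences are labelled Sox2 minus labelled WT and understate the change of low genes. The script was tested on simulated data. Summaries used Python 3.11 and pandas 2.3.3. The authors' bounds had a median half-width over the members of 2.41% and 3.95% (labelled Sox2 replicates 1 and 2) and of 2.14% and 2.40% (labelled WT replicates 1 and 2). Of low values, 69.6% to 71.3% came out as whole fragments within 0.1, so counts were not rebuilt. Transcript lengths are those of principal transcripts in GENCODE vM21.

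The members and the lists were chosen with earlier results of these data known. Named genes were Sox2, the 8 most abundant members, members past the threshold, the member nearest to 0, paralogs with their partners, Rps19bp1 and, from each translation list, up to 4 called genes or the 2 most abundant. Alternatives covered the pseudocount, the filter, 3 scalings, 2 variance models, a replicate block, small RNA genes and each library left out.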

Additional observations from a re-analysis of the deposited data

How the results depend on the processing

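No ribosomal protein gene was called higher under any of the 14 alternatives. The 9 called lower became 0 with no filter on low values (18390 tested genes, those at 0 in all libraries left out; 31 lower at an unadjusted p under 0.05), 14 with a filter at 5 FPKM, 5 with median-of-ratios scaling, 41 with a robust variance model, 25 with a replicate block (2730 of all genes), and 23 without small RNA genes and genes at several positions. Leaving out 1 library gave 0 to 8. The members' median log2 difference of -0.91 was -0.55 with median-of-ratios scaling, -0.40 with quantile normalization and -0.61 as a share of FPKM without small RNA genes, and the log2 difference of the summed level was -0.56, -0.38 and -0.60 in that order. Of all genes called, 34.1% were higher in labelled Sox2, against 58.4%, 54.2% and 53.7% under these scalings. Other translation genes called lower, 18, were 0 with no filter (47 at an unadjusted p under 0.05), 66 with a replicate block and 2 to 47 without 1 library. Among the named genes, the sign turned for Rps19 under the 3 scalings (0.27, 0.53 and 0.21). It also turned for Rps19 without labelled Sox2 replicate 2 (0.00021) and without labelled WT replicate 2 (0.014), with -0.19 to 0.014 over the libraries left out. With quantile normalization the sign of Rps27rt (0.067) and Rpl10 (0.14) turned as well. Of all 83 tested members, 81 stayed below 0 with median-of-ratios scaling, 75 with quantile normalization and 82 as a share without small RNA genes. The cause was not tested.

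Replicate numbers were shared by only 2 pairs, so the block rests on a number and not on a design. Deviations of these pairs from the group means correlated at 0.234 over all tested genes and at 0.385 over the 83 tested members. With the block Rps19bp1 was called lower (limma, adjusted p = 0.0125). The number of reads is unknown, and 2 libraries per group limit every call.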
